A study of Mus musculus with 10 samples.

Results

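The 9 immediate early genes followed here in liver RNA, chosen by symbol from 3 families, were Egr1, Egr2 and Egr3, Ier2, Ier3 and Ier5, and Nr4a1, Nr4a2 and Nr4a3. They were 9 of the 38922 genes in the tables, and each symbol matched 1 mouse Ensembl identifier through GENCODE release M21. RNA-seq of whole liver was available from 10 wild-type male C57BL/6N mice, 6 weeks old. A control group of 5 mice received saline i.p., and 5 mice received a CD95-activating antibody (CD95-Ab) i.p. at 0.5 µg/g body weight. Livers of both groups were harvested 6 h after the injection, and no other time was measured. CD95-Ab engages the death receptor CD95 (FAS), to which hepatocytes are very sensitive, and is used as a model of acute liver failure in otherwise healthy mice.

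Immediate early genes are transcribed within minutes of a stimulus from promoters that need no new protein synthesis, through factors such as SRF, CREB and NF-κB that are already present in the cell, and their transcripts are short-lived. The EGR proteins are zinc finger transcription factors that bind GC-rich sites and are held back by the corepressors NAB1 and NAB2. The NR4A proteins are orphan nuclear receptors whose activity depends on how much of them is made, and in liver they are known for their part in gluconeogenesis. The IER proteins are unrelated to either family. IER2 and IER5 share a conserved N-terminal region, whereas IER3 is a small glycoprotein known for its effect on the survival of stressed cells.

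Library totals ranged from 25965699 to 62097636 counts in saline-injected controls and from 27480796 to 44962196 counts after CD95-Ab. A count of 3 therefore stood for 0.0483 to 0.116 CPM (counts scaled to a library total of 1000000), depending on the mouse. The share of mitochondrial transcripts was 7.56 to 21.9% in saline-injected controls and 8.45 to 22.1% in mice injected with CD95-Ab. Saline mouse 5 had both the deepest library and the highest mitochondrial share of the controls.

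Of the 9 genes, 8 passed the filter on low counts, and each of the 8 was higher after CD95-Ab in edgeR's quasi-likelihood test with a Benjamini-Hochberg adjusted p (FDR) of 0.05 or less. Among all genes, 6495 of 13719 tested (47.3%) passed this threshold, 25.4% in the higher direction and 22.0% in the lower. None of the 8 was lower. Ier3, Nr4a3, Egr2 and Ier5 also reached a log2 fold change of at least 2, as did 6.59% of tested genes in that direction. For Egr2, Ier3, Ier5, Nr4a2 and Nr4a3 the 2 groups did not overlap, a separation seen in 18.6% of tested genes. The log2 fold changes of the 8 genes ran from 1.54 to 5.62 with a median of 2.68, beside a median of 0.0064 over all tested genes. These counts describe the genes that could be tested. Nr4a3 reached the filter's CPM minimum in no control and in all 5 mice injected with CD95-Ab. Nr4a2 reached it in 2 and Egr2 in 3 controls, again with all 5 mice injected with CD95-Ab. The filter used library totals without TMM factors, so its counts of mice can differ from the CPM printed here. Nr4a2 in saline mouse 5, at 0.371 CPM on TMM-scaled totals, did not reach the minimum on the filter's scale. The filter asked for 5 mice, so these 3 genes entered the test through the group in which they were high. The other 5 genes reached the minimum in every mouse. All 5 were higher, and of these Ier3 and Ier5 did not overlap between the groups.

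**Figure D1:**
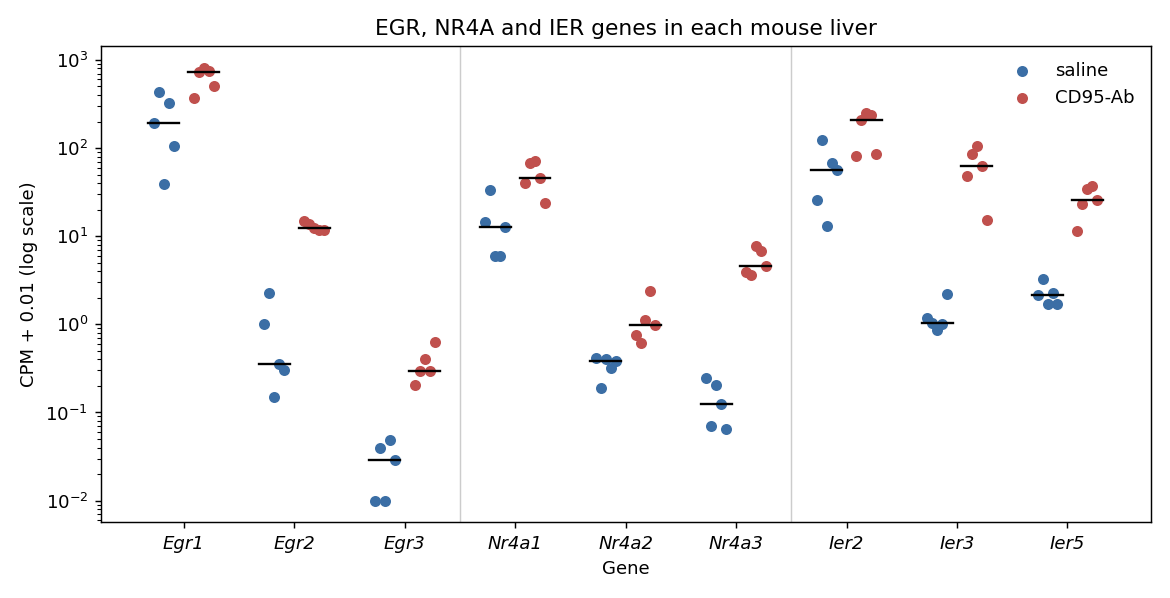
CPM of the 9 genes in each of the 10 mice on a log axis (0.01 added so that values of 0 appear), with blue points for the 5 saline-injected controls, red points for the 5 mice injected with CD95-Ab and a bar at each group median. Egr1, Ier2 and Nr4a1 overlapped between the groups, and the other 6 genes did not.

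Egr1 (ENSMUSG00000038418, chr18:34859823-34864984, plus strand, GRCm38), the founding EGR factor, was the most abundant of the 9 genes in both groups. Its level in saline mice 1 to 5 was 192, 437, 38.7, 326 and 105 CPM, and in CD95-Ab mice 1 to 5 it was 373, 736, 818, 756 and 507 CPM. Saline mouse 2 was above CD95-Ab mouse 1, so the groups overlapped, and the controls spread 11.3-fold from lowest to highest against 2.20-fold after CD95-Ab. Averages were 219.9 ± 162 and 638 ± 189 CPM (SD, 5 mice per group), and the log2 fold change was 1.54 ± 0.51 (SE) with an edgeR FDR of 0.0275. The exact two-sided permutation test on log2 CPM gave p = 0.0159, where the smallest p that 5 against 5 mice allow is 0.00794. This call depended on single mice. Without saline mouse 1 or 5, or CD95-Ab mouse 2 or 3, the edgeR FDR of Egr1 was 0.0569, 0.0577, 0.0539 and 0.0557.

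Egr2 (ENSMUSG00000037868, chr10:67535475-67542188, plus strand), a relative known from hindbrain and Schwann cell development and from activated lymphocytes and macrophages, was low in controls. Saline mice 1 to 5 had 0.988, 2.25, 0.141, 0.346 and 0.297 CPM, and CD95-Ab mice 1 to 5 had 14.8, 13.7, 12.4, 11.8 and 11.8 CPM. The groups were far apart, and the 5 mice injected with CD95-Ab lay within 1.26-fold of each other while the controls spread 16.0-fold. The average went from 0.805 ± 0.872 to 12.9 ± 1.33 CPM, a log2 fold change of 4.01 ± 0.55 with an edgeR FDR of 0.000114. The exact permutation p was 0.00794, the smallest this design can give. As Egr2 entered the test through the group in which it was high, its FDR and p are a description only.

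Egr3 (ENSMUSG00000033730, chr14:70077203-70082614, plus strand), known from muscle spindles and, with Egr2, from T cells, was close to the detection limit. The 5 controls had 0, 1, 0, 1 and 1 counts, and CD95-Ab mice 1 to 5 had 6, 9, 10, 7 and 28 counts. The groups did not overlap, although only 2 of the CD95-Ab mice reached the filter's CPM minimum, and Egr3 was left out of the fit for that reason. Summed over mice, 3 counts stood against 60, a depth-scaled ratio of 23.5 with an exact 95% interval of 7.68 to 117 that covers counting error only. The exact permutation test on log2(CPM + 0.1) gave p = 0.00794.

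Of the promoters, RefSeq windows on GRCm38.p6 were used for 6 of the 9 genes: 5 start sites of Egr2 and 1 each of Ier3, Ier5, Nr4a1, Nr4a2 and Nr4a3. The 250 bases before each start were searched on both strands for the CArG box bound by SRF, the cAMP response element TGACGTCA and its half-site TGACG, the EGR site GCGNGGGCG, the κB site bound by NF-κB, the AP-1 site TGANTCA, and AAAGGTCA, the NBRE that NR4A monomers bind. Any full cAMP response element also counts as a half-site, and an EGR site was present in 4.7%, an NBRE in 1.34% and an AP-1 site in 6.75% of the 32851 windows of the same length. Egr2 is shown for a CArG box held by 3 of its 5 windows. These 3 windows overlap on the genome, so this is 1 site and not repeated matches. The stretch at chr10:67537619-67537868 (plus strand, 250 bases, in no annotated exon) is printed 5′ to 3′ with the CArG box and the half-sites in capitals, CGTCA being TGACG on the other strand.
Egr2: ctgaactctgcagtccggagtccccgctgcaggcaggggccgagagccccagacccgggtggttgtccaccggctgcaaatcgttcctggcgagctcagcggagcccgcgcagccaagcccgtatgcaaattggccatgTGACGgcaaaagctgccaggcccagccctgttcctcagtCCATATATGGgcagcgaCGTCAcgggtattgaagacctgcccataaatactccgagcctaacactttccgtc
The CArG box lay 72 to 63 bases before that start, and a CArG box was found in 1.47% of all windows. Half-sites were at 111 to 107 and 55 to 51 bases before the start. A further upstream start of Egr2 held a different CArG box, and the most upstream start held 2 overlapping κB sites and no CArG box. A match is a description of the letters only.

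Nr4a1 (ENSMUSG00000023034, chr15:101254269-101274795, plus strand), the receptor also called NUR77, was the NR4A gene with the highest level in both groups. The controls, in the order of saline mice 1 to 5, had 14.4, 33.3, 5.94, 5.89 and 12.7 CPM, and CD95-Ab mice 1 to 5 had 39.8, 67.2, 72.0, 45.7 and 23.7 CPM. Saline mouse 2 was above CD95-Ab mouse 5, and no other control reached the range of the CD95-Ab group. Nr4a1 rose on average from 14.5 ± 11.2 to 49.7 ± 20.0 CPM, with a log2 fold change of 1.78 ± 0.47 and an edgeR FDR of 0.00816. The exact permutation p was 0.0159.

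Nr4a2 (ENSMUSG00000026826, chr2:57106830-57124003, minus strand), the receptor NURR1 best known from dopaminergic neurons, was low in both groups. In saline mice 1 to 5 it was at 0.400, 0.178, 0.394, 0.308 and 0.371 CPM, which were 6 to 20 counts, and CD95-Ab mice 1 to 5 had 0.738, 0.605, 1.11, 2.38 and 0.974 CPM. Each mouse of the CD95-Ab group exceeded the highest control, and CD95-Ab mouse 4 stood apart from the rest of its group. Average levels rose from 0.330 ± 0.0927 to 1.16 ± 0.710 CPM, a log2 fold change of 1.78 ± 0.40 with an edgeR FDR of 0.00321, and of 1.33 with an FDR of 0.00425 without CD95-Ab mouse 4. The exact permutation p was 0.00794. Nr4a2 also entered the test through the CD95-Ab group, so its FDR and p are a description only.

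Nr4a3 (ENSMUSG00000028341, chr4:48045153-48086447, plus strand), the receptor NOR1, had the largest change of its family. In saline mice 1 to 5 it was at 0.235, 0.0593, 0.197, 0.115 and 0.0556 CPM, which were 2 to 10 counts, and CD95-Ab mice 1 to 5 had 3.92, 3.63, 7.68, 6.86 and 4.54 CPM. The lowest mouse injected with CD95-Ab had 114 counts, and the groups did not come near each other. The average rose from 0.133 ± 0.0811 to 5.33 ± 1.83 CPM, a log2 fold change of 5.30 ± 0.40. The edgeR FDR was 1.98e-06 and the exact permutation p 0.00794. Both are a description only, since Nr4a3 entered the test through the CD95-Ab group alone. FPKM are fragments scaled to transcript length and library size. On log2(FPKM + 0.1), a scale that understates the changes of low genes, the difference was 3.06 for Nr4a3 and 1.01 for Nr4a2.

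The 3 NR4A promoters are shown because each held 4 half-sites TGACG within the 250 bases before its start, which 0.137% of all windows did, and 17.8% held at least 1. The number 4 was chosen after the matches were seen. Capitals mark half-sites on either strand, and the EGR sites of Nr4a1 and Nr4a2. The stretches are chr15:101266596-101266845 on the plus strand for Nr4a1, chr2:57124004-57124253 on the minus strand for Nr4a2 and chr4:48045055-48045152 on the plus strand for Nr4a3, the last cut to 98 bases at the first annotated exon so that 3 of its 4 half-sites are printed.
Nr4a1: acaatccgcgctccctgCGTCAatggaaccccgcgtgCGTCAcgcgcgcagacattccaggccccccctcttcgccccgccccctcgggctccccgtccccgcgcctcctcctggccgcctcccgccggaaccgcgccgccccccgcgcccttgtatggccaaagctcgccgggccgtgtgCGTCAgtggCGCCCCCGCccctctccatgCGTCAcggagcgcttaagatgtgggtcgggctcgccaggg
Nr4a2: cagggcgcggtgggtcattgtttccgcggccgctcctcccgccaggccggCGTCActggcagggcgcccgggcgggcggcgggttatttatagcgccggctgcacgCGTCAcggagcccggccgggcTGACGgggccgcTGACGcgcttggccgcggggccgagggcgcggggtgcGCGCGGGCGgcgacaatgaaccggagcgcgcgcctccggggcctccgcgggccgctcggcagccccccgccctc
Nr4a3: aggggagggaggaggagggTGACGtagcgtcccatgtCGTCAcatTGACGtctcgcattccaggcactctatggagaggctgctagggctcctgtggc
The log2 fold changes were 1.78 for Nr4a1 and for Nr4a2 and 5.30 for Nr4a3. Whether the half-sites had a part in these changes was not tested. Nr4a3 had no EGR site in its window, and none of the 3 windows held a full cAMP response element, a CArG box, a κB site, an NBRE or an AP-1 site.

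Ier2 (ENSMUSG00000053560, chr8:84661331-84662852, minus strand), a small nuclear protein linked to transcription and cell motility, was the most abundant IER gene. Its level in saline mice 1 to 5 was 26.04, 125, 12.9, 67.5 and 55.7 CPM, and CD95-Ab mice 1 to 5 had 80.7, 208, 251, 235 and 85.0 CPM. Saline mouse 2 was above CD95-Ab mice 1 and 5, so the groups overlapped. The average rose from 57.4 ± 43.6 to 172 ± 82.8 CPM, with a log2 fold change of 1.58 ± 0.54, an edgeR FDR of 0.0303 and an exact permutation p of 0.0397. This call was lost in more fits without 1 mouse than any other of the 8. The edgeR FDR was 0.0656, 0.0527 and 0.0548 without saline mouse 1, 4 or 5, and 0.0605, 0.0693 and 0.0594 without CD95-Ab mouse 2, 3 or 4.

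Ier3 (ENSMUSG00000003541, chr17:35821684-35822923, plus strand), also called IEX-1 and a known target of NF-κB and p53, had the largest log2 fold change of the 8 and ranked 82 of 13719 tested genes. Saline mice 1 to 5 had 1.18, 1.04, 0.845, 1.0 and 2.19 CPM, and CD95-Ab mice 1 to 5 had 47.8, 84.9, 106, 61.8 and 15.2 CPM. The controls were tight apart from saline mouse 5, and CD95-Ab mouse 5 was well below the rest of its group, yet every mouse injected with CD95-Ab exceeded every control. On average Ier3 rose from 1.25 ± 0.538 to 63.1 ± 34.7 CPM, a log2 fold change of 5.62 ± 0.51 or 49.2-fold, with an edgeR FDR of 5.71e-06 and an exact permutation p of 0.00794.

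The promoter of Ier3 is shown for its only match to the κB pattern searched, in capitals, 92 to 83 bases before the start. The stretch is chr17:35821463-35821683 (plus strand, 221 bases, cut at the first exon). The search used a fixed pattern, beginning with GGG and ending with CC on either strand, so other forms of κB site were not counted. This pattern was found in 7.25% of all windows.
Ier3: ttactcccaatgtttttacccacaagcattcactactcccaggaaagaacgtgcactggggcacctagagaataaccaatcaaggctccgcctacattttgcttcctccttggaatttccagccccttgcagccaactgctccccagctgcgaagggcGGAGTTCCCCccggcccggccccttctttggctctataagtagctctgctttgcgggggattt
None of the other motifs was present in this window, and the window of Ier5 held none of the 7 motifs searched.

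Ier5 (ENSMUSG00000056708, chr1:155096361-155099636, minus strand), known to bind the phosphatase PP2A and the heat shock factor HSF1, was low in every control. Saline mice 1 to 5 had 2.12, 3.23, 1.69, 2.27 and 1.67 CPM, and CD95-Ab mice 1 to 5 had 11.4, 23.3, 34.0, 36.8 and 25.6 CPM. The lowest mouse injected with CD95-Ab was at 11.4 CPM and the highest control at 3.23 CPM. On average Ier5 rose from 2.20 ± 0.636 to 26.2 ± 10 CPM, a log2 fold change of 3.58 ± 0.32 with an edgeR FDR of 4.73e-06 and an exact permutation p of 0.00794.

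**Figure D2:**
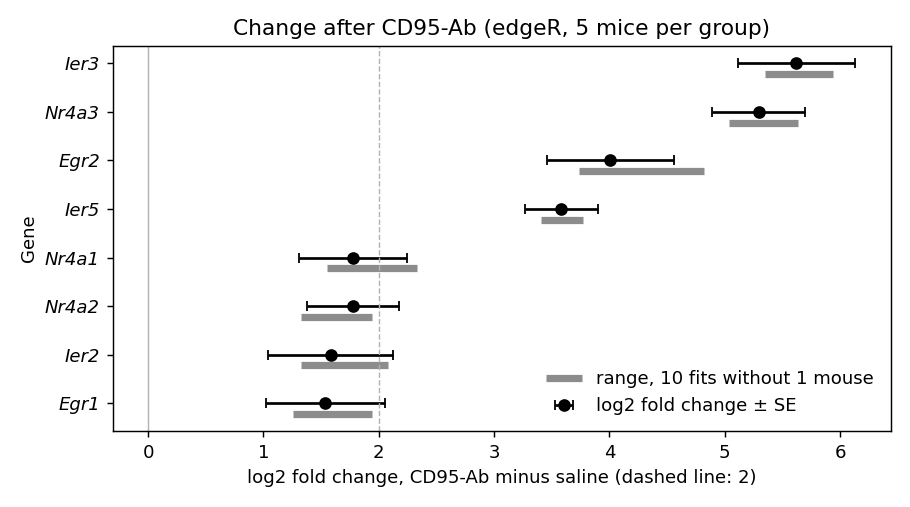
Log2 fold change (CD95-Ab minus saline) of the 8 tested genes from edgeR, with black bars for 1 SE, grey bars for the range over the 10 fits that each left out 1 mouse, a line at 0 and a dashed line at the second threshold of 2. Ier3, Nr4a3, Egr2 and Ier5 lay above 2, and Nr4a1, Nr4a2, Ier2 and Egr1 lay between 1.54 and 1.78.

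In each mouse the log2 ratio of 1 family member to another was taken on CPM + 0.1 for the 7 pairs of tested genes. For the pairs of IER genes the ratios of both groups were compared by an exact two-sided permutation test. The comparison was added after the values were seen. The 3 IER genes, which reached the filter's minimum in every mouse, changed by different amounts. Ier3 gained 3.55 ± 0.63 (SE) on Ier2, with no overlap between the groups and an exact permutation p of 0.00794. Ier3 also gained 1.91 ± 0.61 on Ier5, and Ier5 gained 1.64 ± 0.52 on Ier2, with exact permutation p-values of 0.0159 and 0.0238 and overlapping groups. The p-values of these IER pairs are not adjusted for the number of pairs and are a description only. The other 4 pairs each hold a gene that entered through the CD95-Ab group, and are given as values with no test. The ratio of Egr2 to Egr1 went from -7.98 ± 0.90 to -5.56 ± 0.57 (SD), a difference of 2.42 ± 0.48 (SE). Nr4a3 differed by 2.58 ± 0.67 against Nr4a1 and by 3.11 ± 0.27 against Nr4a2, where its control values rest on 2 to 10 counts, and Nr4a1 against Nr4a2 differed by 0.54 ± 0.73. In deposited FPKM every difference kept its direction, but those of Nr4a3 against Nr4a1 and Nr4a2 shrank to 1.19 and 2.05.

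**Figure D3:**
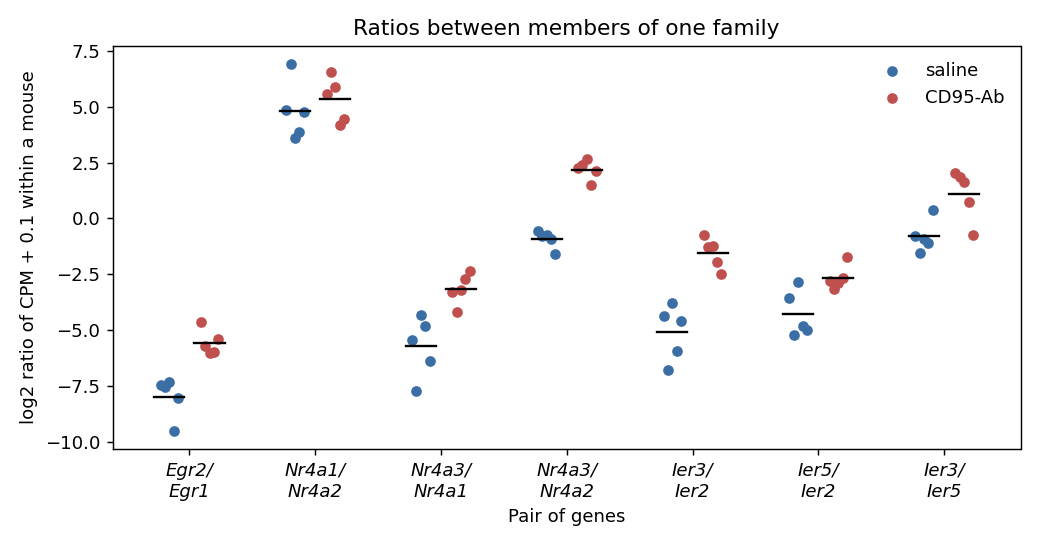
Log2 ratio of CPM + 0.1 between pairs of genes of 1 family in each of the 10 mice, saline against CD95-Ab, with a bar at each group mean. For Egr2 to Egr1, Nr4a3 to Nr4a1, Nr4a3 to Nr4a2 and Ier3 to Ier2 all 5 mice injected with CD95-Ab lay above all 5 controls, and for the other 3 pairs the groups overlapped.

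Levels of different genes were compared per length, in deposited FPKM. In saline-injected controls the order by median was Egr1 (71.1, range 13.2 to 164 FPKM), Ier2 (33.0, 9.15 to 97.3), Nr4a1 (4.57, 2.43 to 15.7), Ier3 (1.10, 0.82 to 1.77) and Ier5 (0.71, 0.45 to 1.15), and Egr2, Nr4a2, Nr4a3 and Egr3 had medians of 0.13, 0.12, 0.02 and 0.01 FPKM. After CD95-Ab it was Egr1 (210.0, 139 to 242), Ier2 (136, 58.3 to 153), Ier3 (50.4, 14.3 to 87.8), Nr4a1 (18.6, 9.85 to 27.8), Ier5 (8.02, 4.02 to 9.71), Egr2 (4.12, 3.55 to 5.82), Nr4a3 (0.94, 0.70 to 1.33), Nr4a2 (0.30, 0.18 to 0.66) and Egr3 (0.21, 0.16 to 0.46). Ier3 had thus passed Nr4a1, and Nr4a3 had passed Nr4a2. In the controls only Nr4a1 and Ier3 were neighbours whose ranges did not overlap. After CD95-Ab this held for Nr4a1 over Ier5, Egr2 over Nr4a3 and Nr4a3 over Nr4a2. Egr1 was above Ier2 in 4 of 5 controls and in 5 of 5 mice injected with CD95-Ab, and made up 43.0 to 70.8% of the summed FPKM of the 9 genes in controls and 46.0 to 63.7% after CD95-Ab.

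The controls differed among themselves most in Egr1, Egr2, Ier2 and Nr4a1. The SD of log2 CPM among the 5 controls was 1.39 for Egr1, 1.40 for Egr2, 1.27 for Ier2 and 1.03 for Nr4a1. These SDs placed the 4 genes between the 97.5th and the 99.2th percentile of all tested genes, whose median SD was 0.279. In the CD95-Ab group the SD of Egr1 was 0.48 and that of Egr2 was 0.14, the latter at the 10.5th percentile, while Ier3 (1.09), Ier2 (0.82) and Nr4a2 (0.72) were above the 90th percentile. Some mice stood high or low in several genes. Saline mouse 2 was the highest control for 5 of the 8 genes (Egr1, Egr2, Ier2, Ier5 and Nr4a1) and the lowest for Nr4a2, and saline mouse 3 was the lowest for 4 (Egr1, Egr2, Ier2 and Ier3). CD95-Ab mouse 3 was the highest of its group for Egr1, Ier2, Ier3, Nr4a1 and Nr4a3. No label gives the order of handling or a batch, so these differences between mice could not be set against one.

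**Figure D4:**
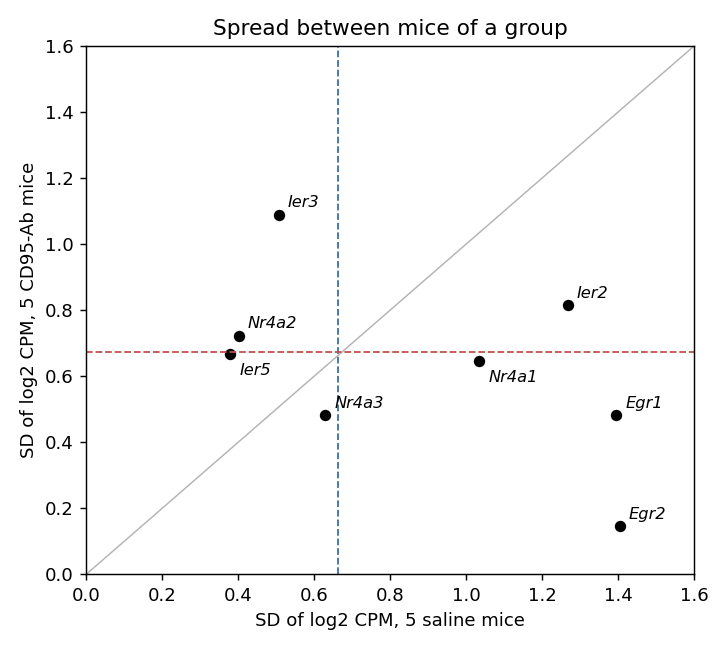
SD of log2 CPM among the 5 mice of each group for the 8 tested genes, saline on the x axis and CD95-Ab on the y axis, with dashed lines at the 90th percentile of all tested genes in each group and a grey line where both SDs are equal. Egr1, Egr2, Ier2 and Nr4a1 lay beyond the line for saline, and Ier2, Ier3 and Nr4a2 beyond the line for CD95-Ab.

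Deviations of log2 CPM from the group mean over the 10 mice were correlated between the 8 genes as a description, with no test, since all points share the same libraries. The 28 pairs had Pearson's r from -0.41 to 0.84 with a median of 0.28, and 20 were above 0. Egr1 and Ier2 went together most closely (0.84), followed by Egr2 and Nr4a1 (0.77) and by Egr1 and Egr2 (0.72). Nr4a2 and Nr4a3 went with each other (0.66) but had negative r, from -0.41 to -0.14, with each of Egr1, Egr2, Ier2 and Nr4a1. Their control values rest on 6 to 20 counts for Nr4a2 and 2 to 10 for Nr4a3, so counting error enters these r. Among 12129 expressed genes, those most like Ier2 over the 10 mice were Jun (0.97), Junb (0.96) and Socs3 (0.94), all 3 of them other immediate early genes. Those most like Egr2 were Cd86 (0.98), Ms4a4c (0.96) and Cd274 (0.96), and those most like Nr4a1 were Vtn (0.98), Calhm6 (0.97) and Il1rn (0.93). For Egr2 these r rest mostly on the controls, where its SD was 1.40 against 0.14 after CD95-Ab. All r in this search are the highest of 12129 genes over 10 mice and so are high by selection. Ier5 was most like Sox9 (0.98), Cks2 (0.95) and Eps8l2 (0.93), Egr1 most like Ank2 (0.92), Rrbp1 (0.90) and Farp1 (0.89), and Ier3 most like Txndc11 (0.97), ENSMUSG00000052429 (0.95) and Myl12a (0.95). For Nr4a2 the closest were E2f7 (0.91), Zmym6 (0.89) and Cpt1b (0.89), and for Nr4a3 Wdr59 (0.89), Bace2 (0.85) and Hpgd (0.83).

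Of 40 other immediate early genes listed, 37 were higher and none was lower, beside 25.4% higher among all tested genes. This list and those below were chosen with earlier results of these data known, so their counts are descriptions only. The groups did not overlap for 30 of them, all higher, beside 18.6% of all tested genes, and the median log2 fold change was 2.14. Fosl1, a FOS-related AP-1 subunit, went from 0.0718 ± 0.0352 to 7.47 ± 3.61 CPM (log2 fold change 6.69, edgeR FDR 1.35e-06). Atf3, a stress-induced repressor, went from 12.5 ± 10.6 to 249 ± 85.7 CPM (4.31, edgeR FDR 0.000151), and Ptgs2, the inducible cyclooxygenase, and Dusp5, a nuclear ERK phosphatase, rose by 6.66 and 4.80 on the log2 scale. The 3 that did not pass, named after their values were seen, were Fos (46.7 ± 64.4 and 137 ± 51.9 CPM, edgeR FDR 0.134), Dusp1 (log2 fold change 0.53, edgeR FDR 0.109) and Klf10 (61.4 ± 25.0 and 41.5 ± 16.5 CPM, log2 fold change -0.56, edgeR FDR 0.157). The relatives Egr4 and Ier5l were too low to test, at 0 to 0.121 CPM for Egr4 over all 10 mice and at averages of 0.146 ± 0.104 and 0.379 ± 0.154 CPM for Ier5l.

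Of 35 upstream regulators, from the EGF receptor through RAS, RAF and the MAP kinases to SRF, CREB and MEF2 factors, 12 were higher, 3 were lower and 20 did not pass, with a median log2 fold change of 0.14. Among all tested genes 25.4% were higher and 22.0% lower, and 47.3% passed in either direction. The share of upstream regulators that passed in either direction was near the background, with a larger part of them higher and a smaller part lower. Mrtfa, the actin-regulated coactivator of SRF, rose from 5.27 ± 0.446 to 21.7 ± 4.31 CPM (2.04, edgeR FDR 1.58e-06), and Srf itself from 9.78 ± 0.594 to 30.5 ± 7.96 CPM (1.64, edgeR FDR 1.74e-05). Mef2c rose by 1.63 and the kinase gene Rps6ka3 by 1.44 on the log2 scale. The 3 that fell, named after their values were seen, were Sos1 (-0.69), Mapk9 (-0.38) and Mapk3 (-0.31).

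Of 7 partners and corepressors, 2 were higher, 3 were lower and 2 did not pass, beside 25.4% higher and 22.0% lower among all tested genes. The 3 that were lower were the RXR genes, which encode nuclear receptors that pair with NR4A1 and NR4A2. Rxrg fell by 1.25, Rxra by 0.82 and Rxrb by 0.62 on the log2 scale (edgeR FDR 0.00189, 0.00641 and 0.00105). Nab1 rose by 0.53 and Ppp2r2a, a regulatory subunit of PP2A, by 0.57, while Nab2 was at -0.58 (edgeR FDR 0.0970) and Hsf1 at 0.20 (edgeR FDR 0.233). Rxra, Nab1, Nab2 and Hsf1 were named after their values were seen.

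Of 16 genes known as EGR1 targets, 15 could be tested, 11 were higher, none was lower and 4 did not pass, beside 25.4% higher among all tested genes, and the median log2 fold change was 2.54. The chemokine gene Ccl2 went from 0.543 ± 0.385 to 137 ± 51.4 CPM (7.97, edgeR FDR 5.21e-07), the matrix gene Thbs1 from 1.92 ± 0.662 to 191 ± 26.7 CPM (6.62, edgeR FDR 9.23e-08), and Tnf and the adhesion gene Icam1 rose by 5.58 and 3.97 on the log2 scale. These genes also answer to other factors, and F3, Vegfa and Nab2, 3 of those that did not pass and named after their values were seen, were at 0.06, 0.48 and -0.58.

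Of 6 gluconeogenic genes linked to NR4A receptors in liver, 5 could be tested, none was higher, 3 were lower and 2 did not pass, beside 22.0% lower among all tested genes, and the median log2 fold change was -0.97. G6pc, the catalytic subunit of glucose-6-phosphatase, fell from 579.7 ± 293 to 32.3 ± 14.6 CPM (-4.16, edgeR FDR 1.53e-05). Slc2a2, the glucose transporter of hepatocytes, fell from 163 ± 43.3 to 40.6 ± 8.69 CPM (-2.01, edgeR FDR 1.78e-05), and Pck1, which encodes phosphoenolpyruvate carboxykinase, fell from 2891 ± 613 to 1472 ± 249 CPM (-0.97, edgeR FDR 0.00202). Fbp1 and Eno3, named after their values were seen, were at -0.49 and -0.21 (edgeR FDR 0.0676 and 0.500).

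Markers of other cells moved with the treatment, and in bulk RNA fewer cells of a type and less RNA per cell cannot be told apart. The counts of markers below stand beside 25.4% higher and 22.0% lower among all tested genes. Hepatocyte markers marked the tissue as liver in every mouse, with summed levels of 102138 to 126882 CPM in controls and 44882 to 84711 CPM after CD95-Ab, and 3 of 8 fell (Alb, Ttr and Ass1), none rose. All 6 tested neutrophil markers and all 6 monocyte markers were higher, with summed levels of 4.08 to 10.6 against 109 to 443 CPM and of 29.1 to 54.2 against 267 to 455 CPM. Endothelial markers were higher for 5 of 6 (48.5 to 104 against 169 to 344 CPM), cholangiocyte markers for 4 of 5 (18.3 to 33.8 against 48.3 to 186 CPM), T and NK cell markers for 7 of 7 (1.296 to 5.34 against 6.997 to 10.4 CPM) and B cell markers for 3 of 3 (0.385 to 2.25 against 1.80 to 10.8 CPM). Erythrocyte markers were higher for 5 of 5, from 135 to 323 against 1064 to 33995 CPM. Kupffer cell markers were higher for 2 of 6 (111 to 387 against 212 to 515 CPM), with Clec4f at 0.10 on the log2 scale. That count was not far from the share over all tested genes, and the summed levels overlapped. Stellate cell markers were higher for 3 of 6 and lower for 1 (133 to 174 against 291 to 446 CPM). Of the small nuclear RNAs Rn7sk, Rmrp and Rpph1, which are largely not polyadenylated, 2 of 2 tested were higher (0.278 to 0.885 against 357 to 1305 CPM). No marker list was at 0 in either group, and the part of the shifts in these lists in the levels of Egr, Ier and Nr4a genes was not tested.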

How the data were processed

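RNA from livers of 10 mice, 5 injected with saline and 5 with CD95-Ab, had been sequenced in paired-end mode from TruSeq libraries on a HiSeq instrument, per the labels. The authors quantified each library with RSEM 1.2.19 and deposited, per mouse and Ensembl gene, an expected count and an FPKM value. The expected counts are not normalized, and the deposited FPKM are scaled to gene length and library size. The genome build and mouse annotation release are not given in the sources used here. Symbols and positions came from GENCODE mouse M21 (GRCm38), which matched 37606 of 38922 identifiers. No other annotated gene overlapped any of the 9 genes.

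The expected counts were rounded to whole numbers and tested across all genes with edgeR 4.0.16 (R 4.3.3): TMM factors, filterByExpr with a minimum count of 10 (a CPM minimum of 0.328 in at least 5 mice), the quasi-likelihood test of CD95-Ab against saline with no covariate, and FDR 0.05 or less, with log2 fold change 2 or more as a second threshold. The SE is the absolute log2 fold change over the root of F. CPM in the text used TMM-scaled totals, whereas the filter used library totals without TMM factors. Single genes were also compared by an exact two-sided permutation test over the 252 regroupings of the 10 mice on log2(CPM + 0.1) with scipy 1.17.1. SDs among mice used log2 CPM with a prior count of 2. The code was tested on simulated data. Alternatives were DESeq2 1.42.0, limma 3.58.1 (voom, and on log2(FPKM + 0.1)), other scaling factors, filters and thresholds, a replicate block and leaving out each mouse.

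The 9 genes and all gene lists were chosen with earlier results of these data known. Named genes are the 9, the up to 4 genes of each list with the largest absolute log2 fold change among those past the FDR threshold with no overlap between groups, the 3 genes most like each of the 8 tested, and markers. Other genes were named after their values were seen, as marked in the text. The values of 1 listed gene are not reported here. The mice are labelled as biological replicates, and no pair of libraries within a group agreed within sampling noise. Intervals from counts cover counting error only. RSEM divides reads shared by similar sequences between genes, which can affect relatives of 1 family.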

Additional observations from a re-analysis of the deposited data

Results flagged for a closer look

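Of 18 sets of 5 values (9 genes in 2 groups), 2 held a mouse whose gap to its nearest neighbour exceeded Dixon's 95% critical value for 5 samples (0.710), a test by which chance marks about 1 set in 20. Ier3 in saline mouse 5 was at 2.19 CPM, where the other controls were at 0.845 to 1.18 CPM. Without this mouse the log2 fold change of Ier3 was 5.94 (edgeR FDR 1.56e-05). Nr4a2 in CD95-Ab mouse 4 was at 2.38 CPM, where the other mice injected with CD95-Ab were at 0.605 to 1.11 CPM.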

How the results depend on the processing

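The 8 tested genes stayed higher, past the FDR threshold, with DESeq2, edgeR's likelihood ratio test, limma-voom, limma on log2(FPKM + 0.1), other scaling factors, no filter and a prior count of 2. At an FDR of 0.01 Egr1 and Ier2 did not pass. With at least 10 counts required in every mouse, 5 genes could be tested and were higher, 2 of them with a log2 fold change of 2 or more, because Egr2, Nr4a2 and Nr4a3 were no longer tested. Leaving out 1 mouse at a time gave 6 to 8 genes higher and 0 lower, with 4 to 6 at a log2 fold change of 2 or more. Egr1 passed in 6 and Ier2 in 4 of these 10 fits, and the other 6 genes in 10 of 10. No direction was reversed.

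Among all tested genes, 1897 were lower at an FDR of 0.01, and leaving out 1 mouse gave 3142 to 3581 higher and 2474 to 3396 lower. More genes were higher than lower with TMM (3480 and 3015), but fewer without scaling factors (2878 and 3244), with upper-quartile factors (3163 and 3591) and in limma on log2(FPKM + 0.1) (2843 and 3275). Among partners and corepressors 1 was higher without scaling factors, in limma on log2(FPKM + 0.1) and at an FDR of 0.01. At that FDR 1 upstream regulator was lower, and without scaling factors 1 EGR1 target was lower. With 1 mouse left out, other immediate early genes were higher for 35 to 38 and lower for 0 to 1, upstream regulators higher for 11 to 14 and lower for 2 to 4, and partners and corepressors higher for 1 to 2 and lower for 3 to 4. EGR1 targets were higher for 10 to 11 and lower for 0 to 1, gluconeogenic genes lower for 3 to 4, and relatives outside the set higher for 0 to 1. At or above the 90th percentile of SD were 4 to 5 genes in saline and 3 to 4 after CD95-Ab. The cause of these changes was not tested.

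Both groups carry replicate numbers 1 to 5, which share only a number: deviations of same-numbered mice correlated at -0.27 to 0.26, and 2 of 5 controls were closest to their own number. In a fit with a replicate block, the 8 genes were higher and 0 lower, 1 other immediate early gene was lower, and 3310 genes were higher and 2677 lower over the whole table. Depth limits Egr3, and the control levels of Nr4a3, to a few counts.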
